A study of Homo sapiens with 6 samples.

Results

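Elastic fibres give stretching tissues their recoil. They have a core of cross-linked elastin and a sheath of microfibrils, which are built from fibrillins and carry glycoproteins of the MFAP family. Fibulins help to place and cross-link elastin on this scaffold, and latent TGF-beta binding proteins tether the inactive growth factor to it. In the heart these proteins lie in the valves, the vessel walls and the matrix between muscle cells.

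The 10 genes followed here, of 21134 in the series table, were MFAP4, MFAP2, MFAP5, FBN1, FBN2, ELN, EFEMP1, EFEMP2, FBLN5 and LTBP1. They were chosen by symbol as genes of the elastic fibre around MFAP4, which was itself selected on its higher level in both alcohol-exposed groups. The differences of MFAP4 between groups are therefore given as a description with no test. All 10 genes were listed in the table. Expression was read in cardiomyocytes grown from H9, a human embryonic stem cell line that the labels and the paper call hiPSC-CMs. The study asked how alcohol alters the transcriptome of these cells, and what is seen when losartan, a blocker of the angiotensin II type 1 receptor, is given with it. Libraries came from untreated cells (control, n = 2), from cells kept for 24 h in 100 mM alcohol (alcohol, n = 2) and from cells kept for 24 h in 100 mM alcohol to which 1 μM losartan was added (co-treated, n = 2). No library came from losartan alone, so an effect of losartan is seen only on top of alcohol. All 6 libraries are from 1 line, and the methods describe differentiation with small molecules and Activin A, with no step that sorts the cells.

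Levels are in FPKM, the estimated reads of a gene scaled for transcript length and library size, which can be compared between genes. Differences are log2 fold changes of the estimated counts from edgeR, and a gene was called at an adjusted p under 0.05 over all 14926 genes tested. The estimated counts summed to 4898287 to 5051448 per library, so that 0 counts still allows 3 counts, or 0.594 to 0.612 CPM (counts scaled to library size), for counting error only. The chi-square between replicates was 4.70 (control), 7.62 (alcohol) and 4.64 (co-treated) times what counting alone gives, so none was counted as a repeat of another. No label says that replicates came from separate cultures, and p-values then measure only the spread between these libraries. With 2 libraries against 2, the smallest two-sided p from exactly permuting 1 gene's values is 0.333.

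Cardiomyocyte markers, with 9 of 9 genes above 0, summed to 24770 and 24510 FPKM in control, 23740 and 17640 FPKM in alcohol, and 20430 and 22340 FPKM in co-treated cells. The sum in FPKM was thus below control in all 4 libraries with alcohol. Its largest part was MYL7 (log2 fold change −0.52 in alcohol, edgeR adjusted p = 0.273, and −0.52 in co-treated cells, edgeR adjusted p = 0.224). TNNI1, MYH7 and MYL2 had positive log2 fold changes in both comparisons. Estimated counts of the 9 genes summed to 235210 and 256700 in control. In the 4 libraries with alcohol they overlapped control, at 215770 to 266230. The cultures also held transcripts that other cells make. The 10 fibroblast markers, which include collagen genes, summed to 426.1 and 469.6 FPKM in control, 485.7 and 518.8 FPKM in alcohol, and 471.5 and 521.3 FPKM in co-treated cells. Among them POSTN was at 27.75 to 37.71 FPKM, PDGFRA at 13.62 to 19.65 FPKM, LUM at 7.31 to 9.74 FPKM and DCN at 4.10 to 7.51 FPKM, whereas TCF21 and THY1 reached at most 0.78 and 1.91 FPKM. The 4 smooth muscle markers summed to 1689 and 1926 FPKM in control, 722.3 and 1451 FPKM in alcohol, and 991.4 and 1036 FPKM in co-treated cells. This sum was lower in each library with alcohol. ACTA2 had a log2 fold change from control of −1.035 in alcohol (edgeR adjusted p = 0.0797) and −1.25 in co-treated cells (edgeR adjusted p = 0.0203). The latter was called, as were 0.362% of all genes in that comparison. The marker CNN1 overlapped control, at 279.07 and 416.88 FPKM in control and 177.47 to 421.72 FPKM in the other 4. The 4 endothelial markers summed to 4.65 and 4.92 FPKM in control and to 6.16 to 8.96 FPKM in the 4 libraries with alcohol, mostly from KDR (log2 fold change 0.57 in alcohol, edgeR adjusted p = 0.235, and 0.86 in co-treated cells, edgeR adjusted p = 0.0502). The 4 endoderm markers summed to 23.01 and 23.69 FPKM in control and to 26.54 to 31.64 FPKM with alcohol. Most of the endoderm sum was AFP (log2 fold change 0.11 in alcohol, edgeR adjusted p = 0.857, and 0.25 in co-treated cells, edgeR adjusted p = 0.549). In FPKM, sums of these 2 lists, of the fibroblast list and of the epicardial list were above control in all 4 libraries with alcohol. MFAP4 and MFAP2 were above control in these 4 libraries too. In estimated counts the fibroblast sum was 12764 in co-treated replicate 2, below 12815 in control replicate 1. Fibroblast markers went both ways in alcohol. POSTN (log2 fold change −0.37, edgeR adjusted p = 0.353), LUM, THY1 and DDR2 were negative, and COL1A1, COL1A2, COL3A1, DCN and PDGFRA were positive. The 4 epicardial markers summed to 8.11 and 10.71 FPKM in control, 10.83 and 11.41 FPKM in alcohol, and 13.64 and 16.52 FPKM in co-treated cells. Most of this was TBX18 (log2 fold change 0.27 in alcohol, edgeR adjusted p = 0.597, and 0.72 in co-treated cells, edgeR adjusted p = 0.0787). WT1, ALDH1A2 and UPK3B reached at most 0.89, 0.45 and 0.92 FPKM. The 3 pluripotency markers summed to 8.77 to 15.89 FPKM. Among all these markers, FOXA2 (endoderm) was at 0 in 4 libraries and VWF (endothelium) in 1. Alcohol replicate 2 had the lowest sums of cardiomyocyte and of smooth muscle markers, and without it the log2 fold change from control in alcohol was 0.97 for MFAP4, 1.07 for MFAP2, −0.35 for FBN2 and −0.40 for LOX. In bulk RNA, more cells of a type and more RNA per cell cannot be told apart, and the part of these cell types in the results below was not tested.

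The submitters' processing notes name the build hg38. Bases upstream of the start sites were available from RefSeq (GRCh38.p14) for 6 of the 10 genes. Of these, MFAP2 and FBN2 are shown because all 4 alcohol-exposed libraries lay beyond both control libraries in both, above for MFAP2 and below for FBN2. Each sequence holds the 250 bases before the start, 5′ to 3′ on the gene's own strand, at chr1:16981584-16981833 (minus strand) for MFAP2 and at chr5:128538246-128538495 (minus strand) for FBN2. Capitals mark matches to the motifs searched on both strands, which were the TATA box with the letters TATAAA, the CCAAT box with the letters CCAAT, the GC box with the letters GGGCGG, the M-CAT motif with the letters CATTCC, the AP-1 motif with the letters TGANTCA, and the CArG box by name.

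MFAP2: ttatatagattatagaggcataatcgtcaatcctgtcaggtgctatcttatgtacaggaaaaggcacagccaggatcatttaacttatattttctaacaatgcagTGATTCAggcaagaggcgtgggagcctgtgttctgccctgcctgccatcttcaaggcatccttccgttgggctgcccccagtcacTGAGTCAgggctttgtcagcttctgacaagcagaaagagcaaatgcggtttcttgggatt

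FBN2: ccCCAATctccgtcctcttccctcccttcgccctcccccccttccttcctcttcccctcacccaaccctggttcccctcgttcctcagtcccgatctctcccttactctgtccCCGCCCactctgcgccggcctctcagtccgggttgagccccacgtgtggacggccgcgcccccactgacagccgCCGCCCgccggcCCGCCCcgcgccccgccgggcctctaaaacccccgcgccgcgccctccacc

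The MFAP2 window is 46.8% G and C and the FBN2 window 72.8%, against a median of 58.0% over the 35116 windows of the table. MFAP2 held 2 AP-1 matches, which begin 145 and 60 bases before the start, and 6.57% of all windows hold 1 or more. FBN2 held 3 GC boxes and 1 CCAAT match, and 42.6% and 32.0% of all windows hold 1 or more of these. Neither held a TATA box, M-CAT or CArG match, which 10.7%, 11.9% and 1.16% of all windows hold. Each match is a description of the letters and no evidence that a factor binds there.

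MFAP4 encodes a secreted glycoprotein with a fibrinogen-like domain that associates with elastic fibres and binds integrins. The gene (NCBI Gene 4239) lies at chr17:19383445-19387190 in GRCh38. It had 26.72 and 24.95 FPKM in control, 50.71 and 66.89 FPKM in alcohol, and 54.05 and 53.57 FPKM in co-treated cells. All 4 libraries with alcohol lay above both control libraries, and this is the pattern that MFAP4 was chosen for. The estimated counts behind these levels were 253 and 234, 479 and 612, and 496 and 504. The level was 25.8 ± 1.25 FPKM in control, 58.8 ± 11.4 FPKM in alcohol and 53.8 ± 0.34 FPKM in co-treated cells (SD, n = 2 each), which is 2.21-fold and 2.02-fold control in the fit. Leaving out each library in turn kept the log2 fold change between 0.97 and 1.30 for alcohol and between 0.95 and 1.09 for co-treated cells.

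Between co-treated and alcohol cells the log2 fold change of MFAP4 was −0.13. A gene chosen for being high in both groups is drawn towards a small value here, so no test is given for this difference either. The 2 groups overlapped, with the co-treated libraries between the alcohol libraries. Without alcohol replicate 1 the value was −0.29 and without alcohol replicate 2 it was 0.040. MFAP4 shares 100 bases with MAPK7, a kinase gene, and the files do not say whether counting used the strand. MAPK7 had 5.25 to 5.82 FPKM in control and 5.02 to 6.27 FPKM in the alcohol-exposed libraries.

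**Figure D1:**
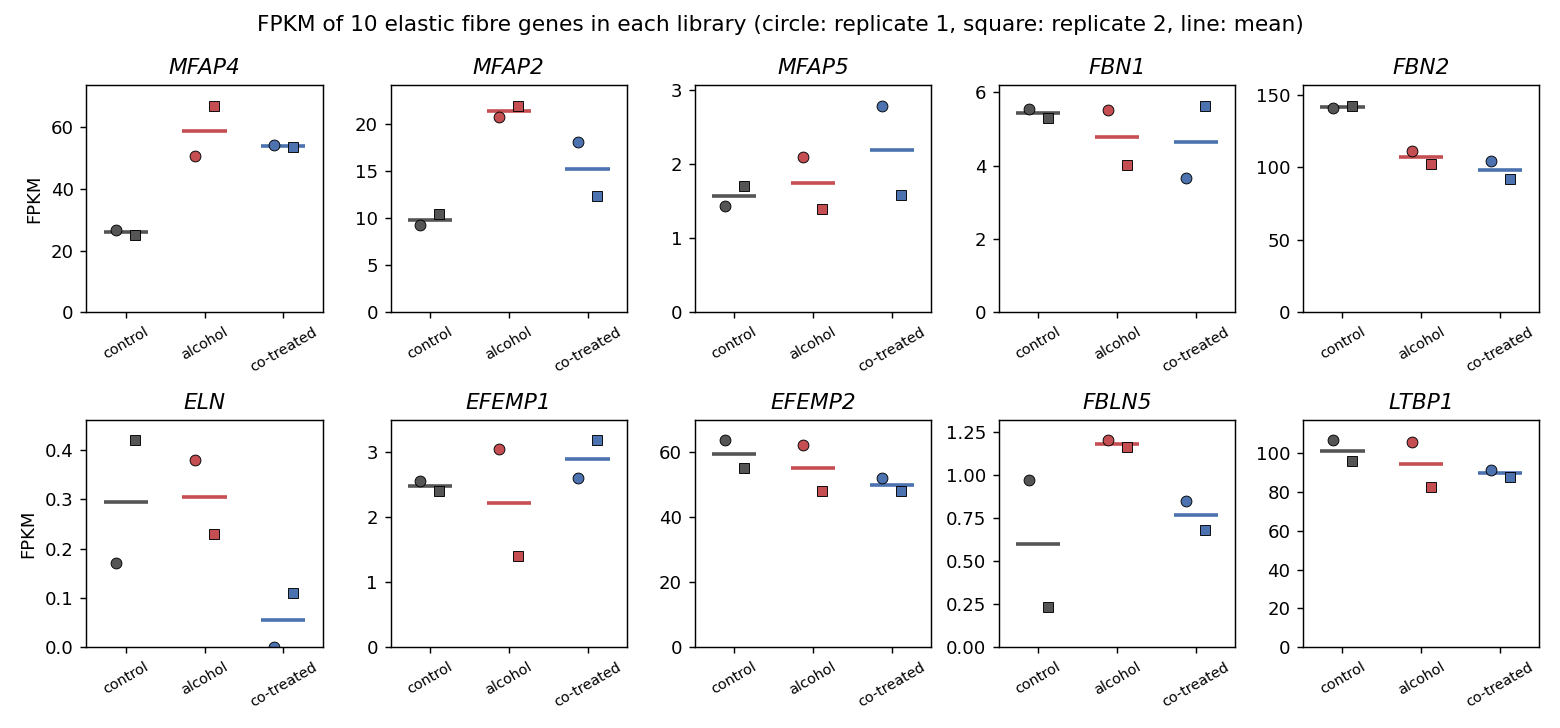
FPKM of the 10 genes in each library, 1 panel per gene with its own axis from 0; circles are replicate 1, squares replicate 2 and lines the mean of the 2. MFAP4 lies at 24.95 to 26.72 FPKM in control and at 50.71 to 66.89 FPKM in the 4 libraries with alcohol, while FBN2 lies at 141.02 to 142.62 FPKM in control and at 91.93 to 111.47 FPKM with alcohol.

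MFAP2 encodes a small glycoprotein that is bound along fibrillin microfibrils. The gene (NCBI Gene 4237) lies at chr1:16974502-16981583. It shares 1935 bases with LOC105376806, which the series table does not list, so how reads from there were counted is uncertain. MFAP2 had 9.32 and 10.42 FPKM in control, 20.79 and 21.99 FPKM in alcohol, and 18.13 and 12.42 FPKM in co-treated cells. The alcohol libraries were close together and well above control, and the co-treated libraries lay between, with replicate 2 near control. MFAP2 was 2.10-fold control in alcohol, a log2 fold change of 1.07 (standard error 0.22), which did not pass the threshold (edgeR adjusted p = 0.108, and 0.0616 to 0.431 over 14 alternatives). In co-treated cells the log2 fold change from control was 0.58 (standard error 0.23, edgeR adjusted p = 0.312). It rested on the library kept, at 0.30 when co-treated replicate 1 was left out and 0.81 when replicate 2 was. Between co-treated and alcohol cells MFAP2 had a log2 fold change of −0.49 (95% interval −0.95 to −0.04, edgeR adjusted p = 0.888, unadjusted p = 0.0367), and −0.77 or −0.26 when co-treated replicate 1 or replicate 2 was left out. The FPKM of MFAP4 was 2.39 to 2.87 times that of MFAP2 in control, 2.44 and 3.04 times in alcohol, and 2.98 and 4.31 times in co-treated cells.

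MFAP5 encodes the close relative of MFAP2 on microfibrils. It was far lower, with 1.44 and 1.71 FPKM in control, 2.09 and 1.39 FPKM in alcohol, and 2.79 and 1.59 FPKM in co-treated cells. The groups overlapped, and these levels rest on 19.88 to 39.67 estimated counts. Its log2 fold change from control was 0.17 (95% interval −0.72 to 1.05) in alcohol and 0.47 (95% interval −0.39 to 1.33) in co-treated cells. With 2 libraries per group and these few counts, values inside these intervals cannot be told apart.

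Fibrillins are the rods of the microfibril. FBN2, the form prominent in developing tissue, was the most abundant of the 10 genes in every library. The gene (NCBI Gene 2201) lies at chr5:128257909-128538245. It had 141.02 and 142.62 FPKM in control, 111.47 and 102.20 FPKM in alcohol, and 104.16 and 91.93 FPKM in co-treated cells. The control libraries differed by little, and all 4 libraries with alcohol lay below them. The counts behind FBN2 were 7734 and 7798 in control and 5017 to 6113 in the other 4 libraries. The log2 fold change from control, with a standard error of 0.13 in both comparisons, was −0.45 in alcohol (0.73 of control, edgeR adjusted p = 0.208) and −0.58 in co-treated cells (0.67 of control, edgeR adjusted p = 0.0787), and neither was called. The call depended on the setting. With DESeq2 the adjusted p was 0.0470 in alcohol and 0.000868 in co-treated cells. For co-treated cells edgeR gave 0.0311 without alcohol replicate 1, 0.0369 without alcohol replicate 2 and 0.0398 with only the groups compared. The range over 14 alternatives was 0.0470 to 0.861 for alcohol and 0.000868 to 0.400 for co-treated cells. Between co-treated and alcohol cells the log2 fold change of FBN2 was −0.13 (95% interval −0.41 to 0.15, edgeR adjusted p = 0.948), and the 2 groups overlapped.

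FBN1, the form of the adult matrix, was low beside FBN2. It had 5.55 and 5.31 FPKM in control, 5.53 and 4.03 FPKM in alcohol, and 3.66 and 5.64 FPKM in co-treated cells. Its groups overlapped, because 1 library of each treated group stayed at the control level. Its log2 fold change was −0.22 (95% interval −0.66 to 0.23) in alcohol and −0.27 (95% interval −0.71 to 0.18) in co-treated cells. FBN2 was 25.4 and 26.9 times FBN1 in control, 20.2 and 25.4 times in alcohol, and 28.5 and 16.3 times in co-treated cells, on the FPKM scale. The ratio of FBN2 to FBN1 overlapped between control and co-treated cells.

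Set against FBN2, MFAP2 and MFAP4 lay higher in all 4 libraries with alcohol. These ratios also carry the lower level of FBN2 itself. EFEMP2 and LTBP1 set against FBN2 lay higher in all 4 too, though neither gene rose above both control libraries in any of them. MFAP2 lay above and FBN2 below control in all 4, which already fixes the direction of their ratio. The FPKM of MFAP2 was 0.0661 and 0.0731 of that of FBN2 in control, 0.186 and 0.215 in alcohol, and 0.174 and 0.135 in co-treated cells. For MFAP4 the same ratio was 0.190 and 0.175 in control, 0.455 and 0.655 in alcohol, and 0.519 and 0.583 in co-treated cells, and here the choice of MFAP4 fixes the direction. FBN2 held 39.4% and 42.1% of the summed FPKM of the 10 genes in control and 30.2% to 31.6% in the 4 other libraries. MFAP4 held 7.46% and 7.36% in control and 13.96% to 20.3% in those 4. The sum itself was 358 and 339 FPKM in control, 363.1 and 330 FPKM in alcohol, and 329.6 and 304.8 FPKM in co-treated cells.

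ELN encodes tropoelastin, the core of the fibre. It was near the limit of detection in these cells, with 3 and 8 counts in control, 7 and 4 counts in alcohol, and 0 and 2 counts in co-treated cells. Its highest level was 0.42 FPKM, in control replicate 2, and it did not pass the expression filter, so no fold change is given. The 0 counts of co-treated replicate 1 allow up to 3 counts, or 0.612 CPM. ELN was the lowest of the 10 genes in 5 of 6 libraries, and in control replicate 2 FBLN5 was lower.

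Fibulins are the members that help elastin onto the microfibril. EFEMP2, which is needed for elastin cross-linking, was the abundant one, with 63.62 and 55.13 FPKM in control, 62.22 and 47.95 FPKM in alcohol, and 51.92 and 48.01 FPKM in co-treated cells. Both co-treated libraries lay below control and the alcohol libraries overlapped it. Its log2 fold change from control was −0.11 (standard error 0.15, edgeR adjusted p = 0.833) in alcohol and −0.31 (standard error 0.15, edgeR adjusted p = 0.413) in co-treated cells. The gene shares 1213 bases with MUS81, a DNA repair nuclease gene at 10.91 to 18.72 FPKM, so how reads were split between the 2 is uncertain.

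EFEMP1, a fibulin known from the eye, had 2.55 and 2.40 FPKM in control, 3.04 and 1.40 FPKM in alcohol, and 2.60 and 3.18 FPKM in co-treated cells. The alcohol libraries lay on either side of control. FBLN5, which binds elastin and integrins, had 0.97 and 0.23 FPKM in control, 1.2 and 1.16 FPKM in alcohol, and 0.85 and 0.68 FPKM in co-treated cells. FBLN5 was above control in both alcohol libraries, yet it rests on 3 to 16 counts, and its log2 fold change of 0.92 had a 95% interval of −0.40 to 2.24 (edgeR adjusted p = 0.641). It was 2.33 without control replicate 1 and 0.23 without control replicate 2. Without control replicate 2, its difference between co-treated cells and control turned from 0.29 to −0.41.

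LTBP1 encodes a latent TGF-beta binding protein, which anchors the inactive ligand to fibrillin. It was the next most abundant gene after FBN2, with 106.65 and 95.82 FPKM in control, 105.71 and 82.80 FPKM in alcohol, and 91.47 and 87.67 FPKM in co-treated cells. The co-treated libraries lay below control and the alcohol libraries overlapped it. The log2 fold change was −0.13 (standard error 0.15, edgeR adjusted p = 0.806) in alcohol and −0.24 (standard error 0.15, edgeR adjusted p = 0.544) in co-treated cells.

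**Figure D2:**
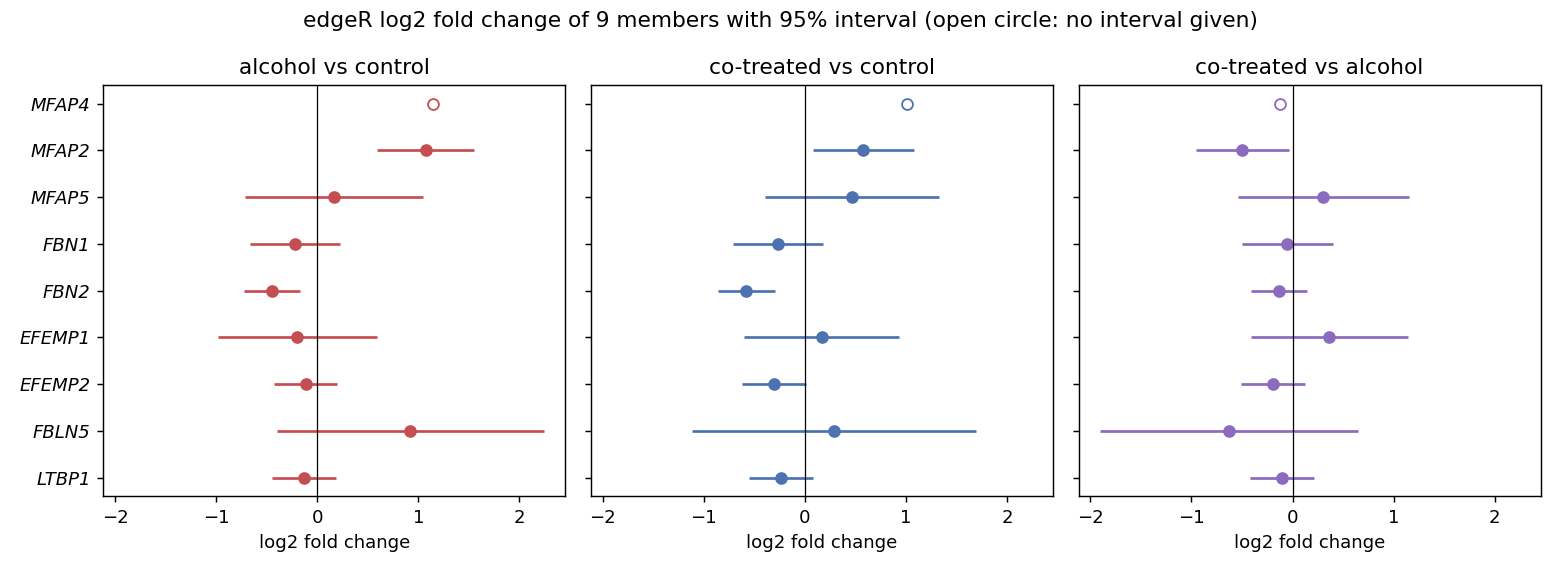
edgeR log2 fold change of the 9 members that passed the expression filter, in the 3 comparisons, with bars for the 95% interval of the fit; open circles are MFAP4, for which no interval is given because its levels in these groups chose the gene. In alcohol against control MFAP2 lies at 1.07 (0.59 to 1.55) and FBN2 at −0.45 (−0.73 to −0.17), and in co-treated against alcohol MFAP4 lies at −0.13 and MFAP2 at −0.49 (−0.95 to −0.04).

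The order of the 10 levels was alike across groups, with 1 exchange. In control it ran FBN2, LTBP1, EFEMP2, MFAP4, MFAP2, FBN1, EFEMP1, MFAP5, FBLN5 and ELN by mean FPKM, and of these neighbours only FBLN5 and ELN overlapped between libraries. MFAP4 was in place 4 in both control libraries and in alcohol replicate 1, and in place 3, above EFEMP2, in alcohol replicate 2 and both co-treated libraries. In alcohol the neighbours FBN2 and LTBP1, MFAP4 and EFEMP2, and EFEMP1 and MFAP5 overlapped, so their order does not hold beyond the spread. In co-treated cells EFEMP1 and MFAP5 overlapped. Over the 6 libraries FBN2 and LTBP1 were at the 97.7 and 97.2 percentile of the 21134 listed genes by mean FPKM, EFEMP2 at 94.6, MFAP4 at 93.5 and ELN at 16.6.

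MFAP4 aside, 8 of the 9 other members passed the expression filter, and 0 of the 8 were called by edgeR in alcohol or in co-treated cells against control. Over all genes tested, edgeR called 0.0670% in alcohol and 0.362% in co-treated cells. In each of these comparisons 1 member had an unadjusted p under 0.05 with a higher level (MFAP2) and 1 with a lower level (FBN2). The share of all genes was 5.27% higher and 5.78% lower in alcohol, and 6.26% and 6.37% in co-treated cells. DESeq2 called FBN2 alone in each, and limma on log2 FPKM called 0. Both alcohol libraries lay above both control libraries for 2 of the 8 (MFAP2 and FBLN5) and below them for 1 (FBN2), against 22.0% and 21.8% of all genes. Both co-treated libraries lay above control for 1 (MFAP2) and below for 3 (FBN2, EFEMP2 and LTBP1), against 21.6% and 21.7% of all genes. The median log2 fold change of the 8 was −0.12 in alcohol and −0.03 in co-treated cells, beside −0.0033 and −0.0017 over all genes. The 2 comparisons share the control libraries.

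Between co-treated and alcohol cells, 0 of the same 8 members were called, while edgeR called 0.0134% of all genes. The count at an unadjusted p under 0.05 was 1 (MFAP2, lower), where 2.84% of all genes were higher and 2.71% lower, and DESeq2 and limma called 0 of the 8. Both co-treated libraries lay below both alcohol libraries for 2 of the 8 (MFAP2 and FBLN5) and above them for 0, against 16.2% and 17.4% of all genes. The median log2 fold change of the 8 was −0.12, beside 0.0023 over all genes.

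A wider list of 26 genes that build, cross-link or load the elastic fibre was read in the same fit, and all 26 passed the filter. edgeR called 0 of the 26 in each of the 3 comparisons. DESeq2 called 0 in alcohol against control, 1 in co-treated cells against control (ADAMTSL4) and 0 between co-treated and alcohol cells, and limma called 0 in all 3. Apart from LOX, LOXL1 and the LTBP, fibulin and EMILIN families, the genes named below were picked after their values were seen, LOXL2 to LOXL4 among them. All genes of the 26 with an unadjusted p under 0.05 are named. In alcohol 3 genes were higher at that level (LTBP2, ADAMTSL4 and THSD4) and 2 lower (LOX and LOXL2). In co-treated cells 2 were higher (LTBP2 and ADAMTSL4) and 5 lower (LOXL1, EMILIN1, FKBP10, TGFB2 and TGFB3). Over all genes 5.27% were higher and 5.78% lower at that level in alcohol, and 6.26% and 6.37% in co-treated cells. The median log2 fold change of the 26 was −0.06 in alcohol and −0.19 in co-treated cells, beside −0.0033 and −0.0017 over all genes. Libraries of the 2 groups did not overlap for 6 genes above and 7 below control in alcohol, and for 2 above and 12 below in co-treated cells, where the shares of all genes were 22.0% and 21.8%, and 21.6% and 21.7%.

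LTBP2, a relative of LTBP1 that binds fibrillin and does not hold latent TGF-beta, had the highest log2 fold change of this list in edgeR in both comparisons, though on the log2(FPKM + 1) scale it lay below ADAMTSL4 in both. It had 1.12 and 1.15 FPKM in control, 2.12 and 2.24 FPKM in alcohol, and 2.00 and 1.81 FPKM in co-treated cells. All 4 libraries with alcohol lay well above control, at 79 to 95 counts against 49 and 50. The log2 fold change was 0.90 (standard error 0.21, edgeR adjusted p = 0.139) in alcohol and 0.70 (standard error 0.21, edgeR adjusted p = 0.180) in co-treated cells, and 0.57 and 0.44 on the log2(FPKM + 1) scale. LTBP3 had 15.41 and 16.22 FPKM in control, 17.54 and 21.31 FPKM in alcohol, and 16.55 and 13.10 FPKM in co-treated cells. LTBP4 had 16.54 to 16.92 FPKM in control, 16.46 and 18.14 FPKM in alcohol, and 17.10 and 11.74 FPKM in co-treated cells. Neither LTBP3 nor LTBP4 held the pattern of LTBP2 in all 4 libraries.

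ADAMTSL4, a secreted protein that promotes fibrillin assembly, had 11.00 and 10.04 FPKM in control, 14.90 and 19.05 FPKM in alcohol, and 18.93 and 16.75 FPKM in co-treated cells. The groups with alcohol lay above control in all 4 libraries. Its log2 fold change was 0.64 (standard error 0.14, edgeR adjusted p = 0.119) in alcohol and 0.69 (standard error 0.14, edgeR adjusted p = 0.0645) in co-treated cells. The latter was called in 6 of 14 alternatives, with an adjusted p of 0.0321 to 0.347 over them. It was 0.0383 with DESeq2 and 0.0321 and 0.0376 from edgeR without alcohol replicate 1 and alcohol replicate 2. In alcohol it passed in 1 of 14, edgeR without alcohol replicate 1, at 0.0341. THSD4, a relative that binds fibrillin, had 5.99 and 4.07 FPKM in control and 6.17 to 7.42 FPKM in the 4 libraries with alcohol.

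The list holds 5 enzymes of the lysyl oxidase family, which cross-link elastin and collagen, and 0 were called. LOX, the lysyl oxidase, had 3.31 and 3.96 FPKM in control, 2.69 and 1.70 FPKM in alcohol, and 2.77 and 2.90 FPKM in co-treated cells. LOXL1, the family member tied to elastin, had 16.11 and 18.67 FPKM in control, 14.77 and 13.41 FPKM in alcohol, and 12.83 and 8.89 FPKM in co-treated cells. In both genes all 4 libraries with alcohol lay below control. The log2 fold change of LOX was −0.74 (standard error 0.25, edgeR adjusted p = 0.288) in alcohol, and leaving out alcohol replicate 1 or replicate 2 gave −1.16 or −0.40. In co-treated cells it was −0.45 (standard error 0.25, edgeR adjusted p = 0.478). That of LOXL1 was −0.34 (standard error 0.18, edgeR adjusted p = 0.528) and −0.73 (standard error 0.19, edgeR adjusted p = 0.114). LOXL2 had 28.18 and 33.46 FPKM in control, 22.61 and 26.85 FPKM in alcohol, and 28.87 and 29.63 FPKM in co-treated cells, which lie inside the range of control. LOXL3 overlapped control in both comparisons (log2 fold change −0.04 and −0.05). LOXL4 was at 11.71 and 11.73 FPKM in control and 9.59 to 11.36 FPKM in the other 4 libraries (−0.20 in both comparisons).

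Among the remaining relatives, FBLN1 had 17.17 and 21.14 FPKM in control, 14.16 and 19.68 FPKM in alcohol, and 17.99 and 13.11 FPKM in co-treated cells. FBLN2 had 7.27 and 8.56 FPKM in control and 6.09 to 7.67 FPKM in the other 4 libraries. Both are fibulins of the fibre and vessel wall, and their groups overlapped. EMILIN1, a glycoprotein at the border of elastin and microfibril, had 4.72 and 4.88 FPKM in control, 5.41 and 4.81 FPKM in alcohol, and 3.69 and 3.59 FPKM in co-treated cells. It was lower in co-treated cells than in either other group, at an edgeR adjusted p of 0.374 against control and 0.857 against alcohol. Of the ligands that LTBPs hold, TGFB2 had 31.44 and 29.36 FPKM in control, 26.20 and 32.11 FPKM in alcohol, and 21.86 and 23.57 FPKM in co-treated cells (log2 fold change −0.46 from control, edgeR adjusted p = 0.127). TGFB3 had the largest log2 fold change of the list in co-treated cells against control, at −1.11 (standard error 0.47, edgeR adjusted p = 0.343). It rests on 10 to 30 counts, and in alcohol its log2 fold change was −0.28. Between co-treated and alcohol cells LTBP3, EMILIN1 and TGFB2 were the 3 genes with an unadjusted p under 0.05, each lower in co-treated cells, and 2.71% of all genes were lower and 2.84% higher at that level. The co-treated libraries lay above both alcohol libraries for 3 of the 26 genes and below them for 9, against 17.4% and 16.2% of all genes.

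**Figure D3:**
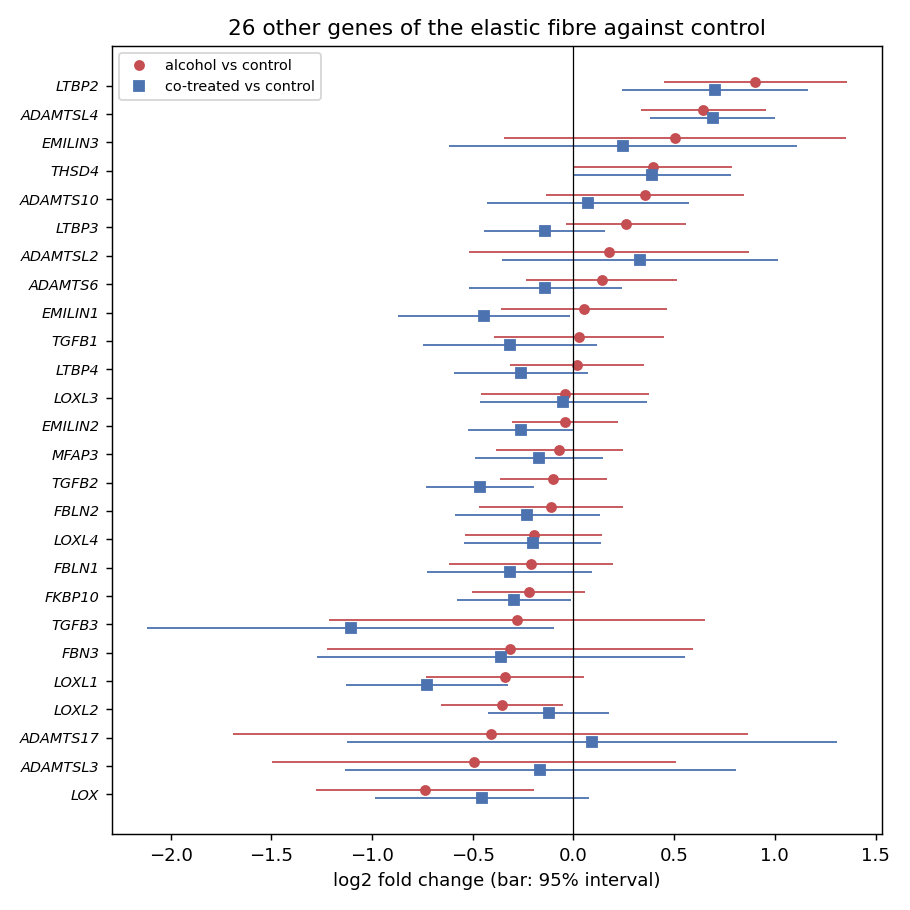
edgeR log2 fold change against control of 26 further genes of the elastic fibre, with circles for alcohol, squares for co-treated cells and bars for the 95% interval; both comparisons use the same 2 control libraries. LTBP2 (0.90 and 0.70) and ADAMTSL4 (0.64 and 0.69) lie to the right and LOX (−0.74 and −0.45) and LOXL1 (−0.34 and −0.73) to the left of 0, and 0 of the 26 were called. TGFB3 (−0.28 and −1.11), which rests on 10 to 30 counts, lies farthest left in co-treated cells.

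The genes whose profile was most like that of MFAP4 were sought by the root-mean-square difference of log2 CPM, each gene being centred on its own mean over the 6 libraries. Of 14925 other genes tested, the 5 nearest were BST2, RAB40A, EPHX2, PPP1R1A and PIP5K1B, at differences of 0.0941 to 0.130. BST2, which encodes an interferon-inducible membrane protein that tethers virus particles, had 18.68 and 17.19 FPKM in control, 30.81 and 49.01 FPKM in alcohol, and 33.97 and 35.22 FPKM in co-treated cells. PPP1R1A, which encodes an inhibitor of protein phosphatase, had 48.16 and 51.00 FPKM in control, 82.77 and 115.07 FPKM in alcohol, and 84.71 and 91.71 FPKM in co-treated cells. EPHX2, the soluble epoxide hydrolase, had 8.91 and 10.03 FPKM in control and 17.02 to 20.51 FPKM in the 4 libraries with alcohol. All 3 had their highest level in alcohol replicate 2, as MFAP4 did. RAB40A rests on 2.78 to 14 counts, and PIP5K1B on 25 to 55. These genes were picked for this profile, so no test is given.

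None of the 5 is a gene of the elastic fibre on the lists used here. Among the members, MFAP2 came nearest to MFAP4, at place 203 of 14925 with a difference of 0.279. FBLN5 was at place 5245 and FBN2 at place 13561, the farthest of the 8 tested.

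**Figure D4:**
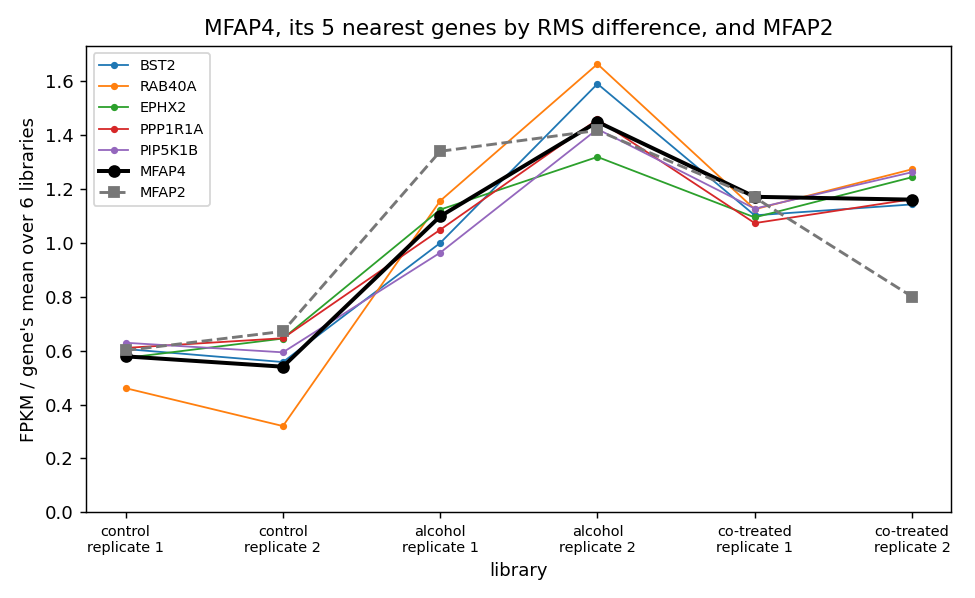
FPKM of MFAP4, of the 5 genes nearest to it and of MFAP2 in the 6 libraries, each divided by the gene's mean over the 6; lines only join the points of a gene. MFAP4 had 26.72 and 24.95 FPKM in control and 66.89 FPKM in alcohol replicate 2, and MFAP2 (dashed) lies farthest from it in alcohol replicate 1 and co-treated replicate 2, where it had 20.79 and 12.42 FPKM.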

How the data were processed

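RNA-seq of 6 libraries was used, grouped by the treatment in the labels. Per the labels, the submitters' processing notes name HISAT2 2.0.4, Bowtie2 2.2.5, RSEM 1.2.12 and hg38, without their roles. For each library the authors deposited expected counts (estimated counts) per gene, of which 33.9% are not whole, and FPKM, scaled by the authors for length and library. Genes absent from a library's table were set to 0. The series table supplied symbols, and its FPKM matched the libraries' own. Depth was 4898287 to 5051448 counts per library.

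Counts were rounded and tested with edgeR 4.0.16 in R 4.3.3 (quasi-likelihood F test, two-sided, TMM, filterByExpr, all 6 libraries, Benjamini-Hochberg over 14926 genes, threshold 0.05). Standard errors are the log2 fold change over the root of F. Log2 counts scaled to library size (CPM) used a prior count of 2. The code was tested on simulated data.

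Alternatives were DESeq2 1.42.0, limma 3.58.1 on log2(FPKM + 1) and log2(FPKM + 0.1), other size factors, other filters, a replicate block, only the groups compared, and each library left out.

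The members and lists were chosen with earlier results of these data known. Named were all 10 members, LOX, LOXL1, LTBP2 to LTBP4, FBLN1, FBLN2, EMILIN1, the 5 genes nearest to MFAP4, and, after their values were seen, LOXL2 to LOXL4 and the genes of the wider list with an unadjusted p under 0.05. Positions and upstream bases are from RefSeq (GRCh38.p14).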

Additional observations from a re-analysis of the deposited data

How the results depend on the processing

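With 2 libraries per group, single genes rest on the spread shared across genes, and MFAP5, FBLN5 and ELN are limited by depth. Directions were followed for the members that passed the filter and for the named genes of the wider list except LOXL3 and LOXL4. None of these changed direction under another tool, size factor, filter, scale, block or choice of groups. With 1 library left out, 34 of 414 values turned. ELN, LOXL3, LOXL4 and the 5 genes nearest to MFAP4 were not followed singly under the alternatives. The cause of the differences below was not tested.

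Over all genes, the 10 called in alcohol against control became 72 with DESeq2, 2 with no filter, 26 with at least 10 counts in every library, 0 with limma on log2(FPKM + 1), 2 with limma on log2(FPKM + 0.1), 3 with only the groups compared and 1 to 220 with 1 library left out. The 54 in co-treated cells against control became 128 with DESeq2, 15 with no filter, 2 and 3 with limma on log2(FPKM + 1) and log2(FPKM + 0.1), 158 with only the groups compared and 2 to 184 with 1 library left out. The 2 between co-treated and alcohol cells became 5 with DESeq2, 1 with no filter, 0 with at least 10 counts in every library, 1 with limma on log2(FPKM + 1), 4 with only the groups compared and 1 to 24 with 1 library left out.

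The replicate numbers were not taken as pairs, because 2 numbers are too few to show it: deviations of same-numbered libraries correlated over genes at 0.11, −0.02 and 0.04. With the replicate block 48, 136 and 5 genes were called, and 1 member (FBN2, adjusted p = 0.0323) and 1 gene of the wider list (ADAMTSL4, adjusted p = 0.0480) in co-treated cells against control, where the fit without it had 0 and 0. It changed no other call among the 8 tested members and the named genes of the wider list.

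Members called against control were 1 with DESeq2 in alcohol, and in co-treated cells 1 with DESeq2, 1 with only the groups compared and 0 to 1 with 1 library left out. Of the wider list, 0 to 1 were called in either comparison with 1 library left out, and in co-treated cells 1 with DESeq2, 1 with at least 10 counts in every library and 1 with only the groups compared.

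The log2 fold changes that turned with 1 library left out had these ranges. In alcohol against control they were −0.16 to 0.45 for MFAP5, −0.50 to 0.028 for FBN1, −0.90 to 0.29 for EFEMP1, −0.33 to 0.081 for EFEMP2, −0.34 to 0.064 for LTBP1, −0.012 to 0.060 for LTBP4, −0.20 to 0.0095 for FBLN2, −0.064 to 0.18 for EMILIN1, −0.21 to 0.015 for TGFB2 and −0.71 to 0.11 for TGFB3. In co-treated cells against control they were −0.025 to 0.84 for MFAP5, −0.63 to 0.024 for FBN1, −0.0012 to 0.32 for EFEMP1, −0.41 to 1.69 for FBLN5, −0.31 to 0.0092 for LTBP3 and −0.25 to 0.022 for LOXL2. Between co-treated and alcohol cells they were −0.29 to 0.040 for MFAP4, −0.19 to 0.67 for MFAP5, −0.42 to 0.24 for FBN1, −0.12 to 1.07 for EFEMP1, −0.39 to 0.021 for EFEMP2, −0.30 to 0.11 for LTBP1, −0.052 to 0.70 for LOX, −0.35 to 0.11 for FBLN1, −0.27 to 0.017 for FBLN2, −0.10 to 0.19 for ADAMTSL4, −0.13 to 0.11 for THSD4 and −0.22 to 0.055 for FKBP10.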
